A study of Mus musculus with 2 samples.

Results

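Erg, Fli1, Ets1, Ets2, Sox7, Sox17, Sox18 and Tal1 encode transcription factors that are used across the endothelium. They were taken as the rows of both count matrices whose gene symbol is 1 of these 8 names, and all 8 were found once among 31053 genes. Liver endothelial cells had been sorted as negative for the dye DAPI and for CD45, a leukocyte marker, and positive for CD31, an endothelial marker. The sph/sph library came from 1 adult mouse homozygous for the sphinx allele of Gimap5 (Gimap5 sph/sph), and the sph/+ library from 1 adult mouse with 1 sphinx and 1 wild-type allele (Gimap5 sph/+). Both mice were of C57BL/6 background and both carried the sphinx allele, so neither was wild type. The product of Gimap5 is a GTPase of lymphocytes and endothelium, and the labels name no Cre driver, transgene or treatment.

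Each mouse gave 1 droplet library made with the 10x Genomics 3′ kit, which counts unique molecular identifiers (UMIs), 1 for each captured transcript, near the 3′ end. Library and genotype cannot be told apart with 1 mouse on each side, so no test between them was possible and every difference describes these 2 libraries. The sph/sph library held 16386 barcodes and 68983780 UMIs, and the sph/+ library held 13136 barcodes and 64460283 UMIs. After filters on depth, on mitochondrial transcripts and on likely doublets, 11321 sph/sph cells and 10980 sph/+ cells were kept, with medians of 3894 UMIs in sph/sph and 4421 UMIs in sph/+. Endothelial-like cells numbered 10727 in sph/sph and 10075 in sph/+, and 30 barcodes occurred in both libraries. Over the endothelial-like cells Ptprc, the gene for CD45, had 3 UMIs in each library. Pecam1, the gene for CD31, stood at 1044 CPM in sph/sph and 723 CPM in sph/+. Both genes are on the marker lists used to choose these cells, so their values do not check the sort. CPM are a gene's UMIs as parts per 1000000 of all UMIs summed over the cells named. Gimap5 itself was at 104 CPM in sph/sph and 105 CPM in sph/+, and a count of 3′ tags does not show the allele.

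ETS factors bind DNA at sites with a GGAA core, which is found in the regulatory regions of most endothelial genes. Erg and Fli1 are close relatives that hold endothelial identity in place, Ets1 acts in angiogenesis, and Ets2 is its nearest relative. Sox7, Sox17 and Sox18 form the SOXF group, which acts in arterial and venous specification, and in mouse Sox17 is known for arterial fate and Sox18 for switching on Prox1 in the first lymphatic cells. Tal1 is a basic helix-loop-helix factor of early blood and endothelium that binds DNA together with E proteins such as Tcf3 and the LIM-domain protein Lmo2.

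The ETS members are neighbours in pairs in the mouse genome (GENCODE M21 annotation, build GRCm38). Erg, at chr16:95359169-95586593 on the minus strand, and Ets2, at chr16:95702075-95721051 on the plus strand, face away from each other across 115 kb with 0 protein-coding genes between them. Fli1, at chr9:32422204-32542861 on the minus strand, and Ets1, at chr9:32636221-32757820 on the plus strand, do the same across 93.4 kb, also with 0 protein-coding genes between them. Sox7 lies at chr14:63943673-63950732 (plus), Sox17 at chr1:4490931-4497354 (minus), Sox18 at chr2:181669836-181671640 (minus) and Tal1 at chr4:115056426-115071755 (plus). Fli1, Ets1 and Sox17 each overlap an annotated gene on the opposite strand. Those of Fli1 and Ets1, Gm27201 and Gm27240, had at most 7 UMIs in either library, and the sources used here do not say whether the counting used strand. On its own strand Fli1 overlaps Gm22060, Gm37082, Gm37474, Gm38292 and Gm38346, none of which is among the genes of the count matrices.

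The windows upstream of Erg and Tal1 are shown because these members had the narrowest spans of levels over sph/sph clusters and because their windows differ in the ETS core. Each is the 250 bases before the gene's start in RefSeq (GRCm38.p6), read 5′ to 3′ on the gene's own strand, with each GGAA, or TTCC where the core is on the other strand, in capitals. The Erg window is chr16:95586594-95586843 (minus strand) and the Tal1 window is chr4:115056176-115056425 (plus strand).
Erg: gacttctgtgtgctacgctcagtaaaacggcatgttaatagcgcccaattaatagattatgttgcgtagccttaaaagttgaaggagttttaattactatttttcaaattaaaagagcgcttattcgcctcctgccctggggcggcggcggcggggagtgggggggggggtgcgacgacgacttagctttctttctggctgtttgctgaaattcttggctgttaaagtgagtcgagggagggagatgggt
Tal1: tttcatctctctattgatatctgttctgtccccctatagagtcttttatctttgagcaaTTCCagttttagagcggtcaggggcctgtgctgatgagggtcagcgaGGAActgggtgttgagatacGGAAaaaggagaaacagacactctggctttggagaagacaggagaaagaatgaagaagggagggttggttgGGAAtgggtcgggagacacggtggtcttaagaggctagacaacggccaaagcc
RefSeq gave 3 windows for Erg and 2 for Tal1, and only the one nearest the GENCODE gene start was read for each. The Erg window so chosen held 0 GGAA cores and the Tal1 window held 4, on both strands together. Of 27025 promoter windows of the same length, the first listed for each gene, 93.4% held at least 1, with a median of 3. The longer letters CCGGAA, which include GGAA, and AACAAT, a SOX-type core, were in neither window, and were in 12.2% and 9.65% of all windows. These matches describe letters and not binding. RefSeq windows were matched for 3 of the 8 genes, and that of Ets2, which held 1 GGAA, is not printed because it starts inside the GENCODE gene model.

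Over all endothelial-like cells, Fli1 and Sox18 were higher in sph/sph, Ets1 and Ets2 were lower, and the other 4 members were within 1.5-fold between the libraries. A gene was called measured at 20 CPM or more in either library, and all 8 members were. Of 7468 measured genes, 18.3% were at least 1.5-fold higher and 21.5% at least 1.5-fold lower in sph/sph. With 2 of 8 members called in each direction, their count was near this background and does not set them apart from other genes. The median log2 ratio, of sph/sph over sph/+ with 1 CPM added to each level, was -0.06 over the members and -0.07 over all measured genes. All intervals below are 95% exact intervals and cover counting error only, and fewer cells of a type and less RNA per cell cannot be told apart in such sums.

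**Figure D1:**
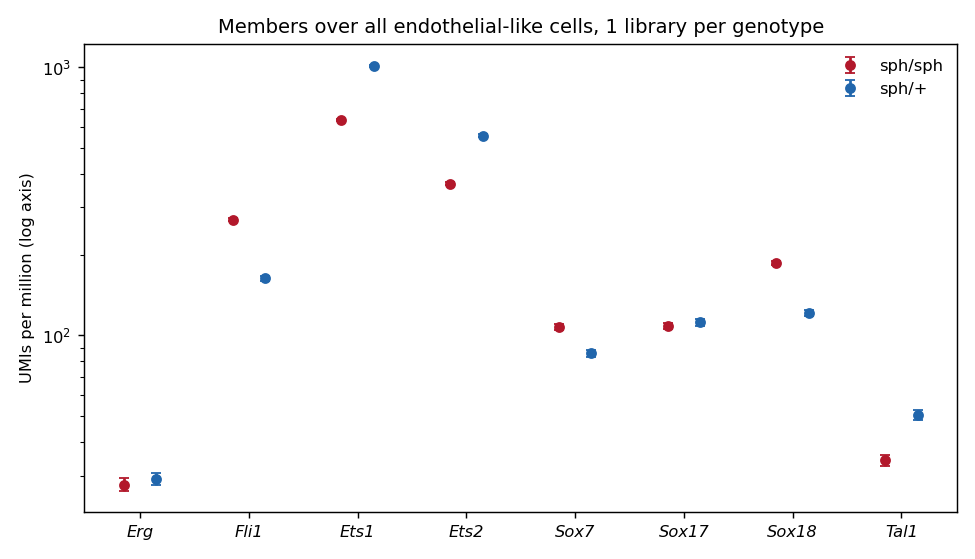
Level of each member in CPM (log axis) over all endothelial-like cells of the sph/sph library (red, left of each pair) and the sph/+ library (blue). Bars are 95% exact Poisson intervals of counting error, with 1 mouse per genotype. Fli1 and Sox18 lie higher in sph/sph, Ets1, Ets2 and Tal1 lie lower, and the bars of Erg and Sox17 overlap.

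Among the ETS members, Erg was at 27.8 CPM in sph/sph (26.4 to 29.3) and 29.1 CPM in sph/+ (27.6 to 30.7), with overlapping intervals. Fli1, its close relative, was at 270 CPM in sph/sph (266 to 275) and 163 CPM in sph/+ (160 to 167), 1.65-fold higher (1.61 to 1.70). Of these close relatives, Fli1 was thus apart between the libraries and Erg was not. Ets1 was at 635 CPM in sph/sph (628 to 642) and 1009 CPM in sph/+ (999 to 1018), 1.59-fold lower (1.57 to 1.61). Ets2 was at 368 CPM in sph/sph (363 to 373) and 556 CPM in sph/+ (550 to 563), 1.51-fold lower (1.48 to 1.54). The members of each genomic pair thus did not go the same way: Fli1 was higher and its neighbour Ets1 lower, and Erg was level while its neighbour Ets2 was lower.

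In the SOXF group, Sox18 was at 186 CPM in sph/sph (183 to 190) and 121 CPM in sph/+ (118 to 124), 1.54-fold higher (1.49 to 1.59). Sox7 was at 108 CPM in sph/sph (105 to 111) and 85.7 CPM in sph/+ (83.1 to 88.4), 1.26-fold higher (1.21 to 1.31) and short of the 1.5-fold call. Sox17 was at 108 CPM in sph/sph (105 to 111) and 112 CPM in sph/+ (109 to 115), with overlapping intervals. Tal1, the bHLH factor, was at 34.2 CPM in sph/sph (32.6 to 35.8) and 50.5 CPM in sph/+ (48.5 to 52.6), 1.48-fold lower (1.39 to 1.57). Tal1 and Ets2 stood on either side of the 1.5-fold line.

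The totals of some members differed without 1 class of cells. Lymphatic-like cells supplied 22.5% of the endothelial UMIs of sph/sph, and only 8 such cells came from sph/+. Without them Ets1 and Ets2 were no longer called, with log2 ratios of -0.44 and -0.30, against -0.67 and -0.60 with them. Sox17 then stood at a log2 ratio of 0.31 and Sox7 at 0.57, both higher in sph/sph, while Fli1 reached 0.86, Sox18 0.70 and Tal1 -0.58. The lymphatic-like cells also carried transcripts of other cell types: 12 stellate or fibroblast markers summed to 1662 CPM there, with 2 at 0 and Dcn at 1363 CPM, and 7 erythroid markers summed to 451 CPM, with 2 at 0. Their median depth was 9750 UMIs. Over all endothelial-like cells the stellate or fibroblast list summed to 391 CPM in sph/sph and 55.8 CPM in sph/+, and the erythroid list to 133 CPM in sph/sph and 0.258 CPM in sph/+. The part of these transcripts in the members' levels was not tested.

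The shares of cells with a UMI of each member were compared at equal depth. Each cell was thinned to 2000 UMIs, which left 9826 sph/sph cells and 9658 sph/+ cells and put aside 901 shallower sph/sph cells and 417 sph/+ cells. Fli1 was detected in 43.3% of sph/sph cells (42.3 to 44.3) and 27.5% of sph/+ cells (26.6 to 28.4), and Sox18 in 31.1% of sph/sph cells (30.2 to 32.0) and 21.1% of sph/+ cells (20.3 to 21.9). Ets1 was detected in 70.3% of sph/sph cells (69.4 to 71.2) and 83.8% of sph/+ cells (83.1 to 84.5), and Ets2 in 51.3% of sph/sph cells (50.3 to 52.3) and 65.0% of sph/+ cells (64.0 to 66.0). Sox7 was in 20.5% of sph/sph cells and 14.9% of sph/+ cells, and Tal1 in 6.80% of sph/sph cells and 9.55% of sph/+ cells. Erg, in 5.59% of sph/sph cells and 5.75% of sph/+ cells, and Sox17, in 17.8% of sph/sph cells and 18.8% of sph/+ cells, had overlapping intervals. Without thinning Fli1 was in 66.1% of sph/sph cells and 48.9% of sph/+ cells, and Ets1 in 87.3% of sph/sph cells and 94.98% of sph/+ cells. Any member was seen in 94.5% of thinned sph/sph cells and 98.2% of sph/+ cells, with a mean of 2.47 members per sph/sph cell and 2.46 per sph/+ cell.

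As a background, shares were read in 119 sph/sph cells of a cluster led by hepatocyte genes, with 2 of 14 general endothelial markers detected. Their median depth was 1790 UMIs, so cells were thinned to 1000 UMIs for this check. In those cells Ets1 was detected in 5.04%, Ets2 and Sox18 in 4.20% each, Fli1 and Sox7 in 2.52% each and Sox17 in 0.840%. Erg and Tal1 were detected in 0 of 119, which allows a share of up to 2.52% by the limit of 3 counts and 3.05% by the exact interval. In all sph/sph endothelial-like cells at the same depth Ets1 was in 48.0%, Ets2 in 33.1%, Fli1 in 25.1%, Sox18 in 17.2%, Sox7 in 11.0%, Sox17 in 10.7%, Tal1 in 3.45% and Erg in 2.82%. For 6 members the endothelial share lay above the hepatocyte-led one with intervals that did not overlap, while the share of Erg lay between the limits that a count of 0 allows and that of Tal1 just above both. The same cluster held 12 sph/+ cells, too few to give a background for sph/+, in which Ets1 was at 438 CPM and Ets2 at 402 CPM, against 143 and 101.8 CPM in the 119 sph/sph cells. Another hepatocyte-led sph/sph cluster (345 cells) had 13 of the 14 markers detected, with Ets1 at 625 CPM and Sox17 at 234 CPM. The 175 cholangiocyte-marked sph/+ cells had all 14 detected. There Ets1 was at 383 CPM, Ets2 at 274 CPM and Sox17 at 34.8 CPM, against 251, 137 and 27.9 CPM in sph/+ venous-like cells. The Sox17 intervals of these 2 groups overlapped. Erg, Sox7 and Sox18 were lower there than in venous-like cells, with intervals apart. Fli1 and Tal1 were also lower, with overlapping intervals. Whether the UMIs in these clusters came from free RNA or from barcodes that held an endothelial cell as well was not tested.

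Cells were then grouped into clusters made without the 8 members, so that their levels did not choose the clusters. The sph/+ endothelium was mostly liver sinusoidal endothelial cell-like (LSEC-like, 9415 cells), with 1 such cell in sph/sph, and the sph/sph endothelium was mostly continuous vascular-like (6340 cells), with 4 such cells in sph/+. Most subtype levels can therefore be read in only 1 library, and subtype and library are confounded between these 2 classes. The levels of the members over the 18 clusters with at least 50 cells in a library, 10 in sph/sph and 8 in sph/+, are a description, since a cluster against the rest is no test.

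**Figure D2:**
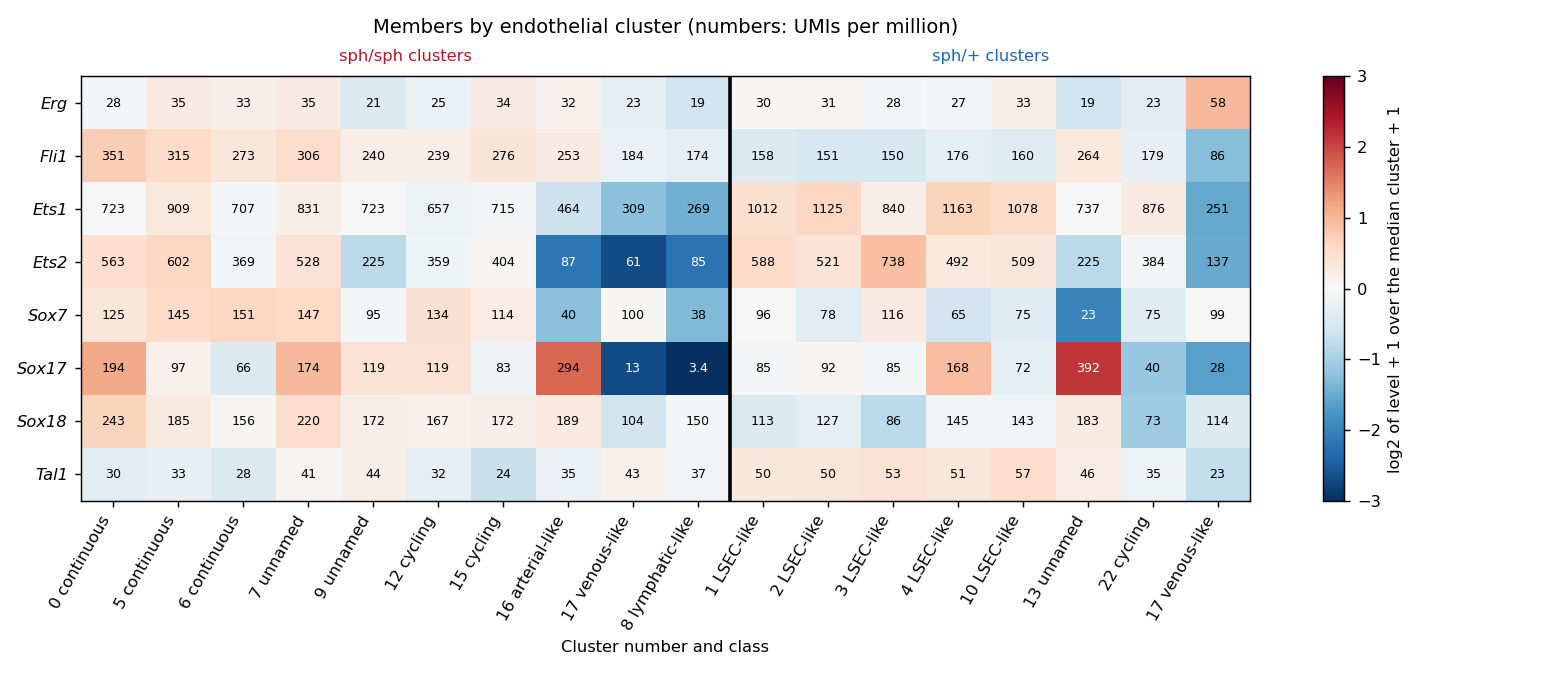
Level of each member (rows) in each endothelial cluster with at least 50 cells (columns), sph/sph clusters to the left of the black line and sph/+ clusters to the right. Printed numbers are CPM and colours are the log2 of the level plus 1 over the median cluster plus 1. Sox17 runs from 3.4 in lymphatic-like to 294 in arterial-like sph/sph cells and reaches 392 in sph/+ cluster 13, and Ets2 is low in arterial-like, venous-like and lymphatic-like cells.

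The highest and lowest clusters were at least 3-fold apart for 4 members in sph/sph, Sox17, Ets2, Sox7 and Ets1, and for 6 in sph/+. The sph/+ count was 3 in 3 of the 4 other clusterings tried. Erg and Tal1 had the narrowest spans in sph/sph. Over the sph/sph clusters Erg lay between 19 CPM in the lymphatic-like cluster and 34.9 CPM in continuous vascular-like cluster 5, 1.84-fold apart, and Tal1 between 24.3 CPM in a cycling cluster and 43.9 CPM in unnamed cluster 9, 1.81-fold apart. Over the sph/+ clusters Erg was 3.1-fold apart, but its highest value, 58.3 CPM in venous-like cells, rested on 23 UMIs. Tal1 was 2.48-fold apart there, with its lowest value resting on 9 UMIs. These are the members with the fewest UMIs, so small steps between clusters were not detectable at this depth. Tal1 was at 71.1 CPM in a cluster of 103 sph/sph cells with erythroid markers, where blood Tal1 transcripts and endothelial ones cannot be told apart.

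Fli1 had its lowest sph/sph values in the lymphatic-like and venous-like cells and its lowest sph/+ value in the venous-like cells. It was at 321 CPM in continuous vascular-like cells, 253 CPM in arterial-like cells, 184 CPM in large-vessel venous-like cells and 174 CPM in lymphatic-like cells of sph/sph. In sph/+ it was at 159 CPM in LSEC-like cells, 264 CPM in cluster 13, led by Nrg1 and Adgrg6, and 86.1 CPM in venous-like cells. The 5 LSEC-like clusters lay between 150 and 176 CPM, below all 10 sph/sph clusters except the lymphatic-like one, which at 174 CPM lay among them. The venous-like sph/sph level, 184 CPM (155 to 217), had an interval that overlapped those of all 5. Inside the classes that both libraries held, counts were too few or cells too unlike to show whether the difference was uniform. Fli1 was 2.14-fold higher in sph/sph venous-like cells (1.46 to 3.21) and 1.47-fold higher in sph/sph cycling cells (1.25 to 1.73), short of the call. These 2 intervals overlap, and the cycling class does not hold like cells in both libraries. Fli1 was at 253 CPM in 271 arterial-like sph/sph cells. It was at 276 CPM in 17 such sph/+ cells, from 20 UMIs, with overlapping intervals. In the unnamed endothelial clusters it was at 276 CPM in sph/sph and 257 CPM in sph/+, also with overlapping intervals. These were clusters 7 and 9 in sph/sph and, but for 1 sph/sph cell, clusters 13 and 24 in sph/+, so they do not hold like cells.

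Ets1 and Ets2 were lower in large-vessel and lymphatic-like cells than in the main capillary classes. Ets1 was at 768 CPM in continuous vascular-like, 464 CPM in arterial-like, 309 CPM in venous-like and 269 CPM in lymphatic-like cells of sph/sph. Ets1 in sph/+ was at 251 CPM in venous-like cells and 1035 CPM in LSEC-like cells, 4.13-fold lower. Ets2 was at 521 CPM in continuous vascular-like, 87.4 CPM in arterial-like, 61.0 CPM in venous-like and 84.5 CPM in lymphatic-like cells of sph/sph. Ets2 was thus 5.97-fold lower in arterial-like than in continuous vascular-like cells (ratio 0.168, 0.141 to 0.198), 8.55-fold lower in venous-like ones (0.117, 0.0859 to 0.156) and 6.17-fold lower in lymphatic-like ones (0.162, 0.152 to 0.173). Among measured genes 15.8%, 19.1% and 24.1% were at least 1.5-fold lower in these 3 comparisons, and 18.8%, 19.6% and 19.9% at least 1.5-fold higher. All 3 share the continuous vascular-like cells. Ets2 in sph/+ was at 580 CPM in LSEC-like cells, 225 CPM in cluster 13 and 137 CPM in venous-like cells. Its neighbour Erg lay between 18.8 and 34.9 CPM in all of these clusters but the sph/+ venous-like one.

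Ets1 and Ets2 went together over all clusters of each library. Their Pearson correlation was 0.92 over the 10 sph/sph clusters and 0.84 over the 8 sph/+ clusters. In sph/+ the venous-like cells and cluster 13 were lowest in both genes. Among the LSEC-like clusters of sph/+ the orders of the 2 genes were reversed. Cluster 3 had Ets1 at 840 CPM and Ets2 at 738 CPM, and cluster 4 had Ets1 at 1163 CPM and Ets2 at 492 CPM. The points share libraries, and clusters of few cells carry little depth. The relatives Erg and Fli1 went together over the sph/sph clusters, with a correlation of 0.77, and opposite ways over the sph/+ clusters, at -0.96, where the venous-like cells, with 23 and 34 UMIs of these genes, and cluster 13 lie at opposite ends.

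Sox17 was the most uneven member. In sph/sph it was at 294 CPM in arterial-like cells (268 to 321), 194 CPM in continuous vascular-like cluster 0 (186 to 203), which is led by Rgcc and Lpl, 97.2 CPM in cluster 5 (89.7 to 105), led by Hspa1a and Aplnr, and 65.9 CPM in cluster 6 (59.8 to 72.4), which has Angptl4 and Apln among its leading genes. It was at 13.0 CPM in venous-like cells (6.22 to 23.9) and 3.45 CPM in lymphatic-like cells (2.46 to 4.69). The highest and lowest clusters were 85.2-fold apart (61.6 to 121), and 5 of the 9 steps in the order had intervals that did not overlap. Among these were the steps on either side of the venous-like cells, whose level rests on 10 UMIs and depended on the clustering, as given below. In thinned cells Sox17 was detected in 32.8% of arterial-like and 0.435% of lymphatic-like sph/sph cells.

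In sph/+ Sox17 was at 392 CPM in cluster 13 (365 to 421), 168 CPM in periportal cluster 4, 91.5 CPM in periportal cluster 2, 84.7 CPM in pericentral cluster 3 and 27.9 CPM in venous-like cells (13.9 to 49.9). Cluster 13 had 11 of 12 LSEC markers and 7 of 7 periportal LSEC markers detected. It also had 9 of 15 continuous vascular, 6 of 11 large-vessel venous and 5 of 12 arterial markers detected. Among its leading genes were 1 periportal marker, Adgrg6, and 1 arterial marker, the gap junction gene Gja5, and it stayed unnamed. It was 3.85-fold above LSEC-like cells in Sox17 (3.56 to 4.16), where 12.2% of measured genes were at least 1.5-fold higher. Cells of sph/+ that fell into the arterial-like cluster numbered 17 and held 2 Sox17 UMIs, or 27.6 CPM (3.35 to 99.9), below the 294 CPM of the sph/sph cells there. The leading genes of that cluster are those of its 271 sph/sph cells, and 17 cells do not give the sph/+ arterial level.

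**Figure D3:**
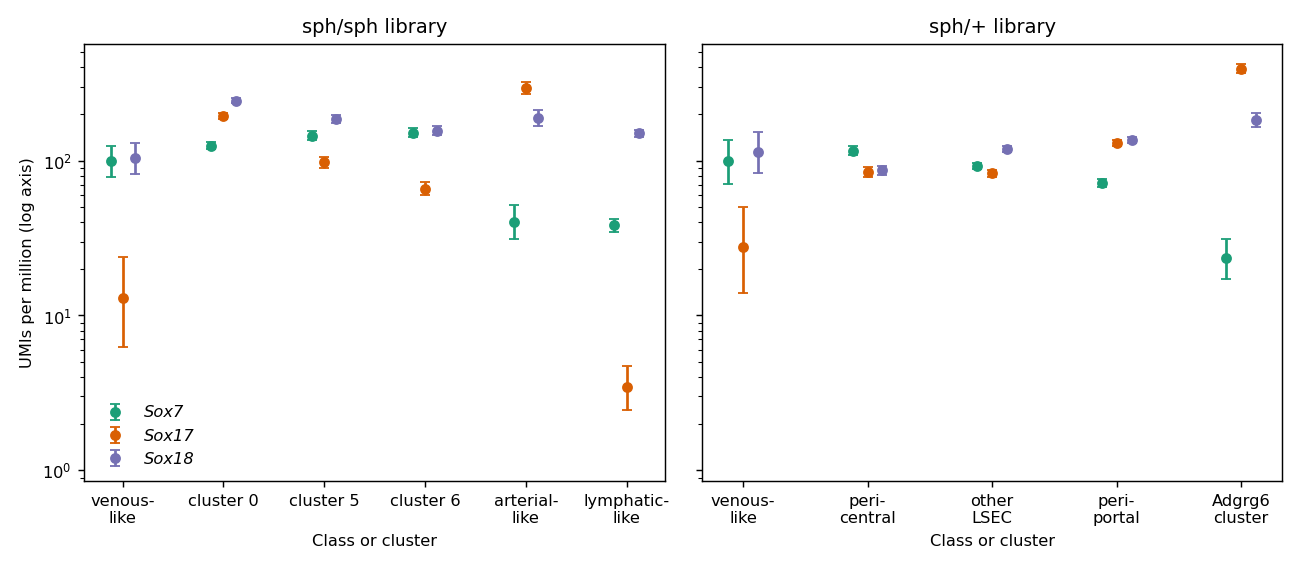
Levels of Sox7 (green), Sox17 (orange) and Sox18 (purple) in CPM (log axis) by class or cluster, sph/sph on the left and sph/+ on the right, with 95% exact Poisson intervals. In sph/+ Sox17 is higher and Sox7 lower in the pooled periportal clusters 2 and 4 and in the Adgrg6 cluster (cluster 13) than in the pericentral cluster, and in sph/sph the arterial-like cells are high in Sox17 and low in Sox7.

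Sox7 and Sox17 ran opposite ways among some blood-vessel clusters and not others. Over continuous vascular-like clusters 0, 5 and 6, in which Sox17 was at 194, 97.2 and 65.9 CPM, Sox7 was at 125, 145 and 151 CPM. Over all clusters their correlation was -0.78 in sph/+ (8 clusters) and 0.37 in sph/sph (10 clusters), where the lymphatic-like cells were low in both and cluster 7 was high in both, with Sox7 at 147 CPM and Sox17 at 174 CPM. In arterial-like sph/sph cells Sox7 was at 40.2 CPM, against 137 CPM in continuous vascular-like cells, 3.41-fold lower (ratio 0.293, 0.225 to 0.375), while Sox17 was 2.19-fold higher (1.98 to 2.41). Set against venous-like sph/sph cells, which had 99.9 CPM of Sox7, the arterial-like cells were 2.48-fold lower in Sox7 and 22.6-fold higher in Sox17 (12.2 to 47.5). The venous-like Sox17 level, from 10 UMIs, depended on the clustering and was 59.3 to 62.2 CPM at a finer resolution or with each library clustered alone, against 13.0 CPM here. In cluster 13 of sph/+ Sox7 was at 23.3 CPM, against 88.7 CPM in LSEC-like cells, 3.80-fold lower (ratio 0.263, 0.192 to 0.352). Among measured genes 15.8%, 14.2% and 15% were at least 1.5-fold lower in these comparisons, in the order given, and 17% were at least 1.5-fold higher in arterial-like over venous-like cells. High Sox17 with low Sox7 was therefore seen in arterial-like cells of sph/sph and in unnamed cluster 13 of sph/+. In cluster 13, 11 of 12 LSEC markers and 5 of 12 arterial markers were detected. The arterial-like cluster had 8 of 12 arterial and 7 of 11 large-vessel venous markers detected. Unnamed cluster 7 of sph/sph also had 8 of 12 arterial markers detected, and there Sox7 was high together with Sox17.

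The lobule showed the same pair in smaller steps. Periportal LSEC-like clusters (3977 cells) were 1.53-fold above the pericentral cluster (2004 cells) in Sox17, with 130 CPM periportal and 84.7 CPM pericentral, and 1.57-fold above it in Sox18, with 136 CPM periportal and 86.4 CPM pericentral. They were 1.62-fold below it in Sox7, with 71.6 CPM periportal and 116 CPM pericentral. In that comparison 2.74% of measured genes were at least 1.5-fold higher and 4.91% at least 1.5-fold lower, so 3 of 8 members past the line stands above the background, though the clusters were chosen by other genes of the same cells and the difference was not tested. Of the periportal clusters, cluster 4 stood farther from the pericentral cluster, with Sox17 at 168 CPM, Sox18 at 145 CPM and Sox7 at 65.3 CPM. The larger one, cluster 2, was short of 1.5-fold for all 3 genes. Its Sox17 was at 91.5 CPM, with an interval that overlapped the pericentral one. Its Sox18 was at 127 CPM and its Sox7 at 77.9 CPM, both with intervals apart from the pericentral ones. Without cluster 4 none of the 3 genes would be called, though cluster 2 differed the same way in Sox18 and Sox7. Ets1 was 1.36-fold higher and Ets2 1.46-fold lower in the periportal clusters, so these relatives, close across vessel types, parted along the lobule. Erg, Fli1 and Tal1 were within 1.1-fold.

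In venous-like cells Sox17 was lower than in the main capillary class of each library, by more than Sox7 was. Set against LSEC-like cells, the venous-like sph/+ cells had 98.8 CPM of Sox7 against 88.7 CPM and 114 CPM of Sox18 against 119 CPM, both with ratios whose intervals included 1. Sox17 there was at 27.9 CPM against 101.8 CPM, 3.66-fold lower (ratio 0.274, 0.136 to 0.490), and Ets2 was 4.24-fold lower (ratio 0.236, 0.177 to 0.308). Of measured genes, 23.0% were at least 1.5-fold higher and 23.2% at least 1.5-fold lower in that comparison. In sph/sph Sox7 was at 99.9 CPM in venous-like cells against 137 CPM in continuous vascular-like cells, 1.37-fold lower (ratio 0.728, 0.573 to 0.912), and Sox18 at 104 CPM against 204 CPM, 1.97-fold lower. Sox17 was at 13.0 CPM against 134 CPM, and the venous-like value is the one from 10 UMIs that lay between 59.3 and 62.2 CPM in both other clusterings that had the class.

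The unnamed sph/sph clusters held capillary-type levels with some differences. Cluster 7, led by Igfbp3, Cxcl12 and Esm1, an endothelial gene of growing vessels, had Sox7 at 147 CPM, Sox17 at 174 CPM, Sox18 at 220 CPM and Ets2 at 528 CPM. Cluster 9, led by Sprr2b and Tubb3, had 9 of 12 LSEC markers detected, more than any other sph/sph cluster, with Ets2 at 225 CPM, Sox17 at 119 CPM and Fli1 at 240 CPM. Its Fli1 level was above those of all 5 LSEC-like sph/+ clusters.

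Lymphatic-like cells were lowest of the sph/sph clusters in Sox7 and Sox17, and their Sox18 was lower by less. Sox18 was at 150 CPM there (143 to 157), second lowest of the 10 clusters, against 204 CPM in continuous vascular-like cells, 1.37-fold lower, while Sox7 was 3.59-fold lower and Sox17 38.9-fold lower (ratio 0.0257, 0.0183 to 0.0351). Prox1, the lymphatic master factor that Sox18 is known to switch on in mouse embryos, was at 479 CPM in these cells and 1.44 CPM in continuous vascular-like cells. Prox1 is on the marker list that named these cells, so its level was partly set by the naming. A link to Sox18 was not tested. Tal1 was at 36.9 CPM there, 1.21-fold above continuous vascular-like cells. As given above, these cells also carried Dcn and transcripts on the erythroid list.

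As shares of all SOXF UMIs, lymphatic-like sph/sph cells gave 20% to Sox7, 1.80% to Sox17 and 78.2% to Sox18. Arterial-like sph/sph cells gave 7.70% to Sox7, 56.2% to Sox17 and 36.1% to Sox18. Cluster 13 of sph/+ gave 3.90% to Sox7 (2.87 to 5.17), 65.5% to Sox17 (62.7 to 68.2) and 30.6% to Sox18 (28.0 to 33.3). The intervals of Sox7 and Sox17 were apart from the arterial-like ones, 5.98 to 9.73 for Sox7 and 52.7 to 59.6 for Sox17, and Sox17 had the largest share in both. Venous-like cells gave 46.1% to Sox7 and 5.99% to Sox17 in sph/sph, and 41.1% to Sox7 and 11.6% to Sox17 in sph/+, with overlapping intervals between the libraries and with the sph/sph Sox17 share resting on 10 UMIs. Their Sox7 and Sox18 levels, 99.9 and 104 CPM in sph/sph and 98.8 and 114 CPM in sph/+, also had overlapping intervals.

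**Figure D4:**
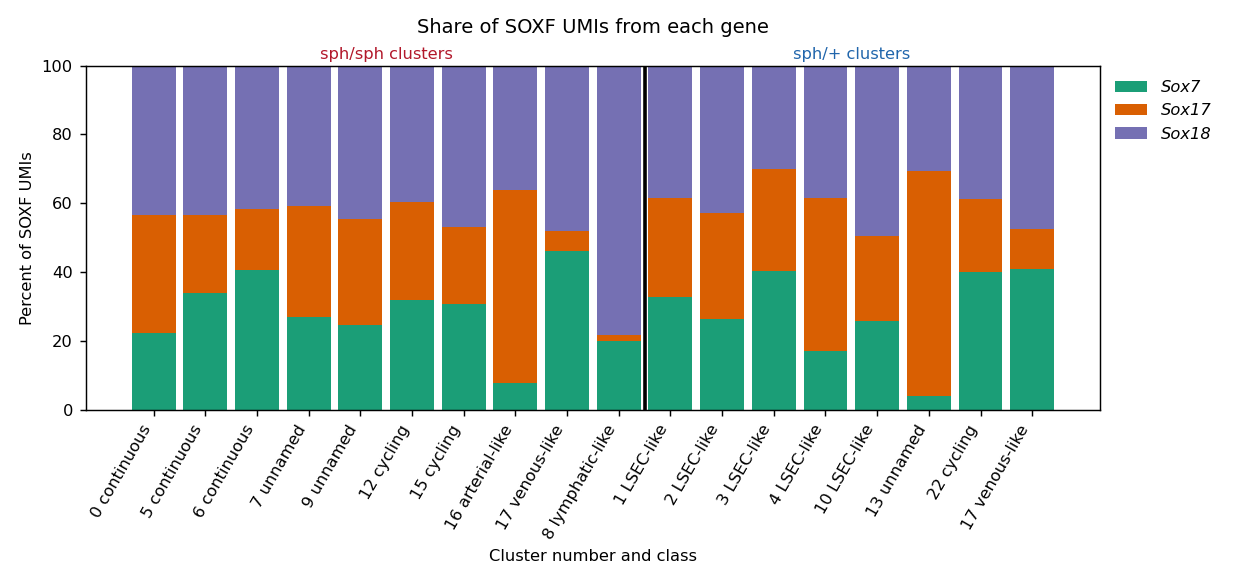
Percent of the UMIs of Sox7 (green), Sox17 (orange) and Sox18 (purple) that came from each gene in each cluster with at least 50 cells, sph/sph to the left of the black line and sph/+ to the right. Sox17 takes more than 56% in arterial-like sph/sph cells and in sph/+ cluster 13 and less than 2% in lymphatic-like cells, where Sox18 takes 78.2%.

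Between the libraries, venous-like cells (116 sph/sph and 79 sph/+ cells) allowed a comparison within a class. Ets2 there was at 61.0 CPM in sph/sph and 137 CPM in sph/+, 2.24-fold lower (ratio 0.446, 0.295 to 0.671), and Erg was at 23.3 CPM in sph/sph and 58.3 CPM in sph/+, 2.50-fold lower (ratio 0.401, 0.204 to 0.776). Ets1, at 309 CPM in sph/sph and 251 CPM in sph/+, had a ratio whose interval included 1. Markers of other cells differed in both directions in this class. Stab2, an LSEC gene, was at 1.30 CPM in sph/sph and 81.1 CPM in sph/+ venous-like cells. Lyve1, also on the LSEC list, was at 183 CPM in sph/sph and 152 CPM in sph/+. The 12 hepatocyte markers summed to 54.5 CPM in sph/sph, with 5 at 0, and 362 CPM in sph/+, with 3 at 0. The 12 macrophage or Kupffer markers summed to 22.1 CPM in sph/sph, with 5 at 0, and 7.60 CPM in sph/+, with 11 at 0. Their part in the differences was not tested. At least 1.5-fold higher or lower in this pair were 20.8% and 25.6% of measured genes. In cycling cells (703 sph/sph and 128 sph/+ cells) Sox17 was at 101 CPM in sph/sph and 41.6 CPM in sph/+, 2.43-fold higher (1.77 to 3.41), and Sox18 at 169 CPM in sph/sph and 82.3 CPM in sph/+, 2.05-fold higher (1.63 to 2.60). Tal1 in cycling cells was 1.54-fold lower, at 28.4 CPM in sph/sph and 43.6 CPM in sph/+. In cycling cells 17% of measured genes were at least 1.5-fold higher and 29.2% lower. Cycling clusters 12 and 15, mostly of sph/sph cells, had 14 of 15 continuous vascular markers detected, and cycling cluster 22, mostly of sph/+ cells, had 12 of 12 LSEC markers detected, so the class does not hold like cells in both libraries.

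For each member, the 3 measured genes whose log2(CPM + 1) had the highest Pearson correlation with it over the 18 clusters were named. The closest was Celf4 for Sox7 (0.97), Shroom2 for Ets1 (0.95), Nrarp for Fli1 (0.93), Phf20l1 for Ets2 (0.92), Glt8d1 for Tal1 (0.91), Prickle2 for Sox17 (0.91), Atp9a for Sox18 (0.88) and Nbas for Erg (0.80). Kdr, the main VEGF receptor, was the third for Ets2 (0.92), and was itself at 1387 CPM in sph/sph and 2896 CPM in sph/+. Of the 24 genes named, 4 were also among the top 3 by Spearman correlation, so most of these names depend on the measure.

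The other ETS genes were spread over both directions. Of 21, 10 were measured, with 2 higher (20%), 3 lower (30%) and 5 between, against 18.3% higher and 21.5% lower over all measured genes, and a median log2 ratio of -0.12. Elf1, an ETS factor of blood and endothelium, was at 135 CPM in sph/sph and 431 CPM in sph/+, 3.18-fold lower, and its relative Elf4 was at 22.5 CPM in sph/sph and 6.82 CPM in sph/+, 3.31-fold higher. Etv1 was at 10.1 CPM in sph/sph and 24.6 CPM in sph/+. Elk3, which represses transcription until it is phosphorylated, was at 346 CPM in sph/sph and 533 CPM in sph/+, 1.54-fold lower. Of 16 other SOX genes, 2 were measured, too few to set against that background, and both were higher: Sox4 was at 194 CPM in sph/sph and 75.6 CPM in sph/+, 2.57-fold higher, and Sox13 at 25 CPM in sph/sph and 9.03 CPM in sph/+, 2.77-fold higher.

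Of 15 Tal1 partners and related bHLH, LIM and GATA factors, 12 were measured, with 4 higher and 4 lower (33.3% each, against 18.3% and 21.5% of all measured genes) and a median log2 ratio of -0.26. Lyl1, the closest relative of Tal1, was at 40.2 CPM in sph/sph and 8.60 CPM in sph/+, 4.68-fold higher, while Tal1 itself was lower. The E protein gene Tcf3 was at 141 CPM in sph/sph and 53.3 CPM in sph/+, 2.64-fold higher, and Id1, whose product keeps E proteins off DNA, at 877 CPM in sph/sph and 226 CPM in sph/+, 3.88-fold higher. Cbfa2t3, a corepressor found with Tal1, was at 118 CPM in sph/sph and 295 CPM in sph/+, 2.50-fold lower. Lmo2 was at 145 CPM in sph/sph and 156 CPM in sph/+.

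Endothelial genes known as ETS or SOXF targets were all 26 measured, with 9 higher, 7 lower and 10 between and a median log2 ratio of 0.11. Those with the largest ratios were Apln, a ligand gene of tip cells, at 366 CPM in sph/sph and 0.581 CPM in sph/+, and Aplnr, the gene for its receptor, at 181 CPM in sph/sph and 0.172 CPM in sph/+. Hey1, a Notch effector, was at 136 CPM in sph/sph and 4.60 CPM in sph/+, and Angpt2, a Tie2 ligand gene, at 205 CPM in sph/sph and 23.0 CPM in sph/+. In these targets 34.6% were at least 1.5-fold higher and 26.9% lower, against 18.3% and 21.5% of all measured genes. They spread widely in both directions while the 8 members stayed within 1.65-fold, and the targets' list was drawn up with earlier results of these data known, so the counts support nothing further.

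**Figure D5:**
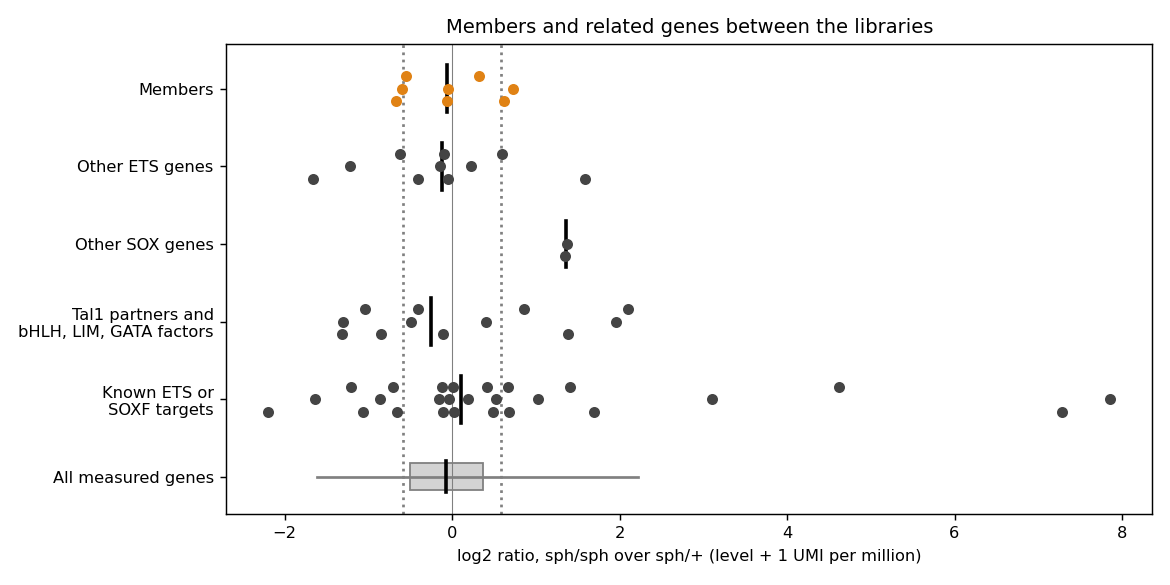
log2 ratio of sph/sph over sph/+ (level plus 1 CPM) for the 8 members (orange) and the measured genes of 4 related lists (grey), each with its median as a black bar, and for all measured genes as a box from the 25th to the 75th percentile with lines to the 5th and 95th percentiles. Dotted lines mark 1.5-fold. The members lie between -0.67 and 0.72, while known targets reach 7.86.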

How the data were processed

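The droplet libraries of sorted mouse liver endothelial cells were 1 from a sph/sph mouse and 1 from a sph/+ mouse. The authors deposited UMI counts for each gene in each barcode, not normalized. Per the submitters' processing notes, the authors ran Cell Ranger 3.0 against mm10, while the file headers name software version 3.1.0. The sources used here do not give the annotation release or say whether counting used strand. The 8 genes and the related gene lists were chosen with earlier results of these data known.

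A barcode was kept with at least 500 genes, at least 1000 UMIs and at most 15% mitochondrial UMIs. Scrublet in scanpy 1.11.5 marked 0% of barcodes as doublets by its automatic threshold in both libraries, so the highest scores were removed at the expected rate of 0.8% per 1000 barcodes, which was 13.1% in sph/sph and 10.5% in sph/+. Both libraries were clustered together without integration on 2000 variable genes, with the 8 members, mitochondrial, ribosomal, Gimap, immunoglobulin and sex-linked genes left out (30 principal components, 15 neighbours, leidenalg 0.10.2, resolution 1.0), which gave 26 clusters. Cluster names rest on marker lists, by a rule that was set after opening the data: a name needed at least 60% of its markers detected in at least 25% of cells and a larger share of them than any other endothelial type, and more of its own markers than of any other type's among the 10 genes most raised in the cluster, where the periportal and pericentral zone markers counted as LSEC-like. Clusters with at least 3 cycling markers among those 10 genes were called cycling. Endothelial clusters that met no full rule stayed unnamed, and clusters led by another cell type were left out of the endothelial-like cells.

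Counts were summed per library over endothelial-like cells and scaled to CPM. Genes at 20 CPM or more in either library were compared by the log2 ratio after 1 CPM was added, and 1.5-fold was the call. Levels have exact Poisson intervals, ratios and shares exact binomial (Clopper-Pearson) intervals, all at 95%. Shares were taken after thinning cells to 2000 UMIs. Named were all 8 members, in each list the up to 4 measured genes with the largest absolute log2 ratio, and 3 most-alike genes per member. Lmo2 and Kdr values beyond that rule, and the leading genes of clusters, were chosen after values were seen. Ratios, intervals and thinning were tested on simulated data. Python 3.11.15, numpy 2.4.6, scipy 1.17.1 and R 4.3.3 were used, with edgeR 4.0.16 for TMM factors as an alternative scaling only.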

Additional observations from a re-analysis of the deposited data

How the results depend on the processing

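With 1 mouse per genotype, no value here has a replicate and no p-value was possible. No paired analysis was possible because each genotype has 1 library. The number of members at least 1.5-fold lower in sph/sph, 2 as reported, was 1 with all kept cells, with every deposited barcode, with median-of-ratios scaling, with edgeR TMM scaling and without lymphatic-like, arterial-like and venous-like cells together. It was 0 without lymphatic-like cells, with cells weighted equally and at a 2-fold threshold, at which the number higher was also 0. The alternative without those 3 classes was chosen after seeing the data. The median log2 ratio of the members, -0.06 as reported, was 0.18 without lymphatic-like cells, 0.16 without the 3 classes and 0.093 with cells weighted equally. Across all alternatives run, the log2 ratio stayed between 0.71 and 0.88 for Fli1, between 0.60 and 0.72 for Sox18, between -0.70 and -0.42 for Ets1, between -0.62 and -0.24 for Ets2, between -0.60 and -0.48 for Tal1 and between 0.31 and 0.62 for Sox7. Without the 3 classes Sox7, at 0.62, passed the 1.5-fold line, which made 3 members higher, and Tal1, at -0.60, passed it as the 1 member lower. Sox17 ranged from -0.06 to 0.31. Members at least 3-fold apart between sph/+ clusters numbered 6 as reported and 3 at resolution 2.0, with the members among the variable genes and with each library clustered alone. Of the 24 genes named as most alike, 4 remained under Spearman correlation. The causes of these shifts were not tested. Values from clusters of few cells, such as the 17 sph/+ cells in the arterial-like cluster, are limited by depth.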
